A study of Mus musculus with 12 samples.

Results

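The 10 genes described here belong to the NF-kB inflammatory circuit and were followed through 4 groups of mouse embryonic fibroblasts: the cytokines Il6 and Tnf, the prostaglandin synthase Ptgs2, the adhesion molecule Vcam1, the interleukin-1 receptor antagonist Il1rn, the feedback inhibitors Nfkbia and Tnfaip3, and the subunit genes Nfkb1, Nfkb2 and Relb. The genes were taken by name, and every probe that the platform annotation assigns to them was read from the signals deposited without normalization. Of these 10 genes, 9 had a probe (12 probes in all), out of 16593 genes named on the array. Nfkb1 had no probe under its name in the annotation and was not analysed here. Of the 9 genes, 8 were above background on at least 3 of the 12 arrays and were tested among 8420 genes, and the remaining gene, Ptgs2, was not.

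The cells were primary MEFs (mouse embryonic fibroblasts, cultured connective-tissue cells) from E15.5 embryos, in the later part of mouse gestation, of the strain C57BL6/J. Control MEFs carried 1 functional copy of each cryptochrome gene (Cry1+/-Cry2+/- in the sample labels, although the design text speaks of wild type), and the double knockout (dKO) MEFs were Cry1-/-Cry2-/-. Each genotype received 1 µM dexamethasone (Dex), a synthetic ligand of the glucocorticoid receptor, or the vehicle ethanol (EtOH), for 16 hours. With 3 arrays labelled as biological replicates per group, the 4 groups are control EtOH, control Dex, dKO EtOH and dKO Dex. The labels do not say whether the replicates of a group came from separate embryos or cultures, so the p-values measure only the spread between these arrays.

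NF-kB is a family of dimeric transcription factors built from Rel proteins. In resting cells inhibitors of the IkB family hold the dimers in the cytoplasm. When a receptor for TNF, interleukin-1 or microbial products is engaged, the IKK kinases mark IkB for destruction and the dimers enter the nucleus, where they switch on cytokine, enzyme and adhesion genes. They also switch on their own inhibitors, among them Nfkbia and Tnfaip3, so that the response limits itself. Glucocorticoids are used as anti-inflammatory drugs, and the glucocorticoid receptor is known both to repress NF-kB targets and to induce some of these inhibitors. Cryptochromes are repressors of the circadian clock that also bind the glucocorticoid receptor.

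The promoters of Il6, Tnf, Nfkbia and Tnfaip3 are shown because they belong to both cytokines and both feedback inhibitors. Each is the RefSeq window of 250 bases before to 50 bases after an annotated start site on the build GRCm38.p6, read 5′ to 3′ along the gene's strand. Capitals mark matches to the kB consensus on either strand, and positions are counted from the start site as base 1, with the base before it as -1. The windows are chr5:30012864-30013163 on the plus strand for Il6, chr17:35201958-35202257 on the minus strand for Tnf, chr12:55492598-55492897 on the minus strand for Nfkbia and chr10:19015361-19015660 on the minus strand for Tnfaip3, the first of its 2 windows.
Il6: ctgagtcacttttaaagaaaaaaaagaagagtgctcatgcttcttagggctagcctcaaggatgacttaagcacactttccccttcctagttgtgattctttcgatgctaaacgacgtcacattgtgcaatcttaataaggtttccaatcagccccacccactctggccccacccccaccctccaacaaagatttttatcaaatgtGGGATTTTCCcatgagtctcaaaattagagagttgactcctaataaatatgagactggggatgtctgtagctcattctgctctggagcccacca
Tnf: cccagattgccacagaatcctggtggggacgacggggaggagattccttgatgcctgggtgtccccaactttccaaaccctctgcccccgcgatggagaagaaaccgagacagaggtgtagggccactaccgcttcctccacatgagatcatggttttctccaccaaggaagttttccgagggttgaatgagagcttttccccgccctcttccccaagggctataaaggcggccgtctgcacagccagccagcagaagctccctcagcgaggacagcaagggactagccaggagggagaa
Nfkbia: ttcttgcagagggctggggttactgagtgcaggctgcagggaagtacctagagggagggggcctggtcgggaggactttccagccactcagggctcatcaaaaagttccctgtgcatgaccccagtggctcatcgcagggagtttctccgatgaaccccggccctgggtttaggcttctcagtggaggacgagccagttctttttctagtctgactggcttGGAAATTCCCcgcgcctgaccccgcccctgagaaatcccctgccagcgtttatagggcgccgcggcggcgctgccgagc
Tnfaip3: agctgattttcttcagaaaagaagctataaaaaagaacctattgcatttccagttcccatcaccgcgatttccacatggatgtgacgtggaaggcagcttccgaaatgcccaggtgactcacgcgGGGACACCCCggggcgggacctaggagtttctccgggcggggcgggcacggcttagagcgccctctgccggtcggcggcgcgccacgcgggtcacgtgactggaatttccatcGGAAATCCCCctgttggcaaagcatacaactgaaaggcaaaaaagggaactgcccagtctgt

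The Il6 window held a kB match that begins at base -44 on the given strand, close upstream of the start. In Nfkbia the match began at base -29 and read on the opposite strand. Tnfaip3 held a match at base -125, which read on both strands, and another at base -12 on the opposite strand. No kB match was found in the Tnf window, which says only that these letters are not within its 300 bases. RefSeq windows were at hand for 7 of the 10 genes (12 windows), and 6 of the 12 held a kB match, against 8.46% of all 32851 windows. Those 6 were the windows of Il6 and Nfkbia, the first of Tnfaip3, and all 3 of Nfkb2. Its windows 2 and 3 overlap and share one match.

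Motifs of other factors were searched on both strands. The half-site of the glucocorticoid response element (AGAACA) was found in 1 of the 12 windows, the second of Tnfaip3, against 19% of all windows. The AP-1 site (TGANTCA) was in 4 of them, with a share of 7.81% over all windows, and these 4 included Il6 at base -249 and the first Tnfaip3 window at base -136. The E-box (CACGTG), the element read by the clock activators that cryptochromes repress, was in 2 of them, with a share of 7.15% over all windows. They were Ptgs2, where it begins at base 17, and the first Tnfaip3 window, where it begins at base -33. A match is a description of the letters and not a measured binding site.

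Each array read 25697 probes, of which 42.6% to 44.9% were above background (a detection p under 0.01). Arrays of a group correlated at r between 0.987 and 0.995 over all these probes. Each level below is a log2 signal, corrected for background and quantile normalized, and each change is the difference of 2 group means in log2 with its standard error (SE) from the linear model, 3 arrays per group. Calls were made where the p adjusted over all 8420 genes was under 0.05. Dex raised the glucocorticoid receptor target Fkbp5 by 4.50 ± 0.15 (SE) in control and 4.82 ± 0.15 in dKO. Tsc22d3, which encodes the glucocorticoid-induced leucine zipper, rose by 2.36 ± 0.11 and 1.95 ± 0.11. Principal component 3 (14.9% of the variance) set apart control Dex 3, dKO EtOH 1 and dKO EtOH 2, a split that crosses the groups. The shift of these 3 arrays was called for 25.1% of the 8420 genes and for none of the 8 tested members. The arrays were picked from these same levels, so these calls are a description and do not show that the split spared the members. The largest member shift was that of Tnfaip3, at -0.47 with an adjusted p of 0.224. Calls that were gained or lost without these 3 arrays are given with both values.

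All 10 measured fibroblast markers were above background on at least 3 arrays. Of 12 measured macrophage markers 11 were above background on at least 1 array, so RNA of that kind was present in the cultures, and Itgam was not above it on any. Their summed signal was 108000 to 122700 in control EtOH, 100400 to 110100 in control Dex, 69820 to 94320 in dKO EtOH and 68550 to 68830 in dKO Dex. The summed fibroblast signal was 64240 to 67990, 61550 to 68620, 99280 to 108700 and 99830 to 104700 in the same order. Of the 10 tested macrophage markers, 9 were lower in dKO than in control in EtOH and 8 in Dex, while of 10 fibroblast markers 7 were higher and 1 lower in EtOH, and 6 were higher and 0 lower in Dex. Dex lowered 5 and raised 2 of the 10 macrophage markers in control cells, and it lowered 2 and raised 1 in dKO cells. Of all genes tested, 15.8% were called lower and 10.7% higher in dKO in EtOH, and 9.82% and 9.92% in Dex. With Dex, 11.4% were called lower and 8.85% higher in control, and 5.99% and 8.62% in dKO. Fewer cells of a type and less RNA per cell cannot be told apart in these bulk cultures. The part of these marker shifts in the results below was not tested. Endothelial markers, the cells in which Vcam1 is best known, were above background for 2 of 7 (Pecam1, Cdh5, Kdr, Esam and Tie1 for none of the arrays), lymphocyte markers for 1 of 7 and epithelial markers for 0 of 5.

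**Figure D1:**
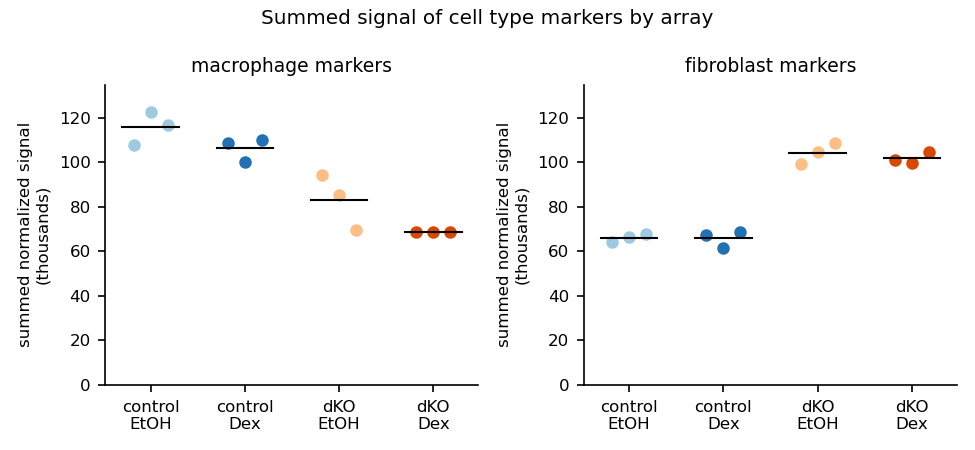
Summed signal of the marker genes of each cell type, as background-corrected, quantile-normalized signal on a linear axis, with 1 point per array, a line at the group mean and the 4 groups along the x axis. The macrophage sum lies between 108000 and 122700 on the control EtOH arrays and between 68550 and 68830 on the dKO Dex arrays, and the fibroblast sum moves the other way between the genotypes.

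Dex lowered both cytokines and raised Nfkbia in each genotype. In control cells 4 of the 8 tested members were called, Nfkbia higher and Il6, Tnf and Il1rn lower, where 20.3% of all genes were called (8.85% higher, 11.4% lower). In dKO cells 4 were also called, Nfkbia higher and Il6, Tnf and Vcam1 lower, where 14.6% of all genes were called (8.62% higher, 5.99% lower). Il6 and Tnf were above background on EtOH arrays alone, so they entered the test through the groups where they were high, and these counts are a description. In control, the EtOH and Dex arrays did not overlap for any of the 8, with 2 higher and 6 lower in Dex, where the arrays of the groups were apart for 16% and 22.2% of all genes. In dKO 1 was apart and higher and 3 were apart and lower, where the shares over all genes were 17.7% and 15.2%.

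Between genotypes, Il1rn was higher in dKO cells under both treatments. In EtOH 3 of the 8 were called, Il1rn higher and Nfkb2 and Relb lower, where 26.5% of all genes were called (10.7% higher, 15.8% lower). In Dex 4 were called, Il1rn higher and Nfkbia, Tnfaip3 and Vcam1 lower, where 19.7% of all genes were called (9.92% higher, 9.82% lower). Without the 3 arrays that component 3 set apart, which leaves dKO EtOH with 1 array that is assumed to vary like the other groups, the EtOH count was 0 and the Dex count 3. The genotypes did not overlap in EtOH for 5 of the 8, with 1 higher and 4 lower in dKO, where 18.4% and 24.7% of all genes were apart in those directions. In Dex they were apart for 6 of the 8, with 1 higher and 5 lower, where the shares over all genes were 18.8% and 17.9%. Each genotype comparison shares its arrays with the Dex comparisons, so these values are given side by side and not as separate evidence.

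**Figure D2:**
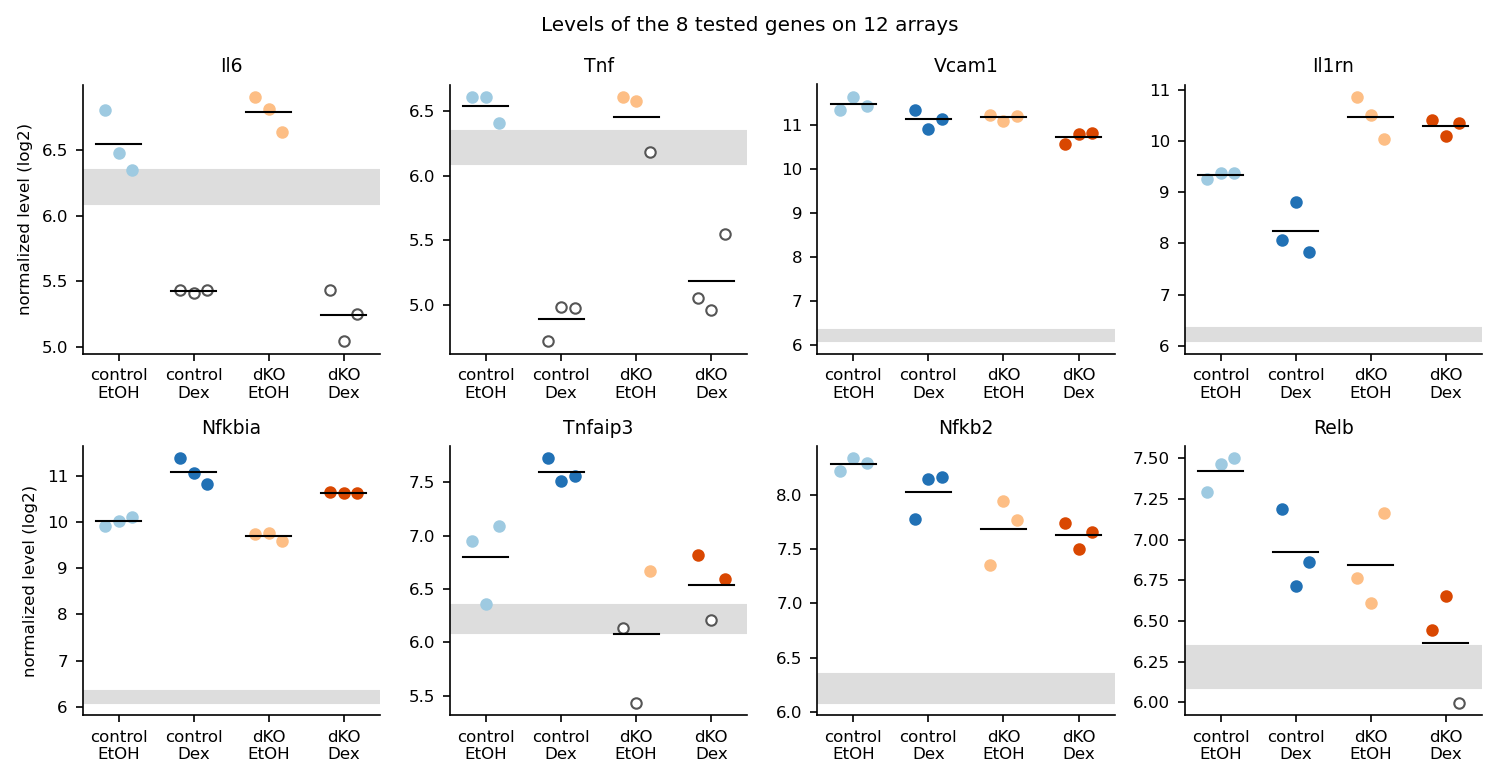
Log2 level of each member by group, with 1 point per array, a bar at the group mean, and hollow points for arrays not above background. The gray band is the range over arrays of the lowest level among probes above background (6.09 to 6.35), and Il6 and Tnf lie under it on all 6 Dex arrays.

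Interleukin-6, encoded by Il6, is a secreted cytokine that drives the acute-phase response. Its level was 6.81, 6.47 and 6.35 in control EtOH and 5.43, 5.41 and 5.43 in control Dex. In dKO cells it was 6.91, 6.82 and 6.64 in EtOH and 5.43, 5.04 and 5.25 in Dex. All 6 EtOH arrays were above background and all 6 Dex arrays were not, with no overlap between treatments in either genotype. Il6 was therefore at least 1.29-fold lower with Dex in control and at least 1.39-fold lower in dKO. These bounds are measured against each array's lowest level above background. The adjusted p-values from limma (0.000144 in control, 1.46e-05 in dKO) belong to fitted changes that use levels at background, and not to the bounds. Il6 also passed the filter through its EtOH arrays alone, so these p-values are only a description. In EtOH the dKO level differed from control by 0.24 ± 0.14 (95% interval -0.05 to 0.54, adjusted p = 0.202), and the groups overlapped. No genotype fold is given in Dex, where both groups were at background.

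Tumor necrosis factor, encoded by Tnf, is a cytokine that itself activates NF-kB through its receptors. Its level was 6.60, 6.61 and 6.40 in control EtOH and 4.72, 4.98 and 4.98 in control Dex. In dKO cells it was 6.60, 6.57 and 6.18 in EtOH, the last not above background, and 5.06, 4.96 and 5.55 in Dex. Like Il6, Tnf was above background on none of the 6 Dex arrays, and the treatments did not overlap. It was at least 1.28-fold lower with Dex in control and at least 1.10-fold lower in dKO. As for Il6, the adjusted p-values from limma (3.64e-05 and 0.000353) belong to fitted changes that use levels at background, and not to these bounds. Tnf too passed the filter through EtOH arrays alone, so they are only a description. The genotypes in EtOH differed by -0.09 ± 0.17 (95% interval -0.45 to 0.28, adjusted p = 0.730). Tnf is also known as a macrophage product, and the macrophage sums above stand beside its values.

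Ptgs2 encodes cyclooxygenase-2, the inducible enzyme that starts prostaglandin synthesis. Its brighter probe was above background on 1 of 12 arrays, dKO EtOH 3 at a level of 6.68, and its levels ran from 5.30 to 6.09 on the rest. The dimmer probe lay between 4.57 and 5.04 and was above background on none. Ptgs2 thus missed the filter of 3 arrays above background and was not tested, and no fold is given in any comparison.

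Vcam1 encodes a surface protein that leukocytes bind through integrins. Its level was 11.34, 11.63 and 11.43 in control EtOH and 11.32, 10.91 and 11.13 in control Dex. In dKO cells it was 11.23, 11.09 and 11.20 in EtOH and 10.55, 10.79 and 10.80 in Dex. Vcam1 was far above background everywhere, and every dKO Dex array lay below every array of the other groups. Dex lowered it by 0.46 in dKO (change -0.46 ± 0.13, 95% interval -0.73 to -0.18, adjusted p = 0.0322). In control the change was -0.35 ± 0.13 (95% interval -0.62 to -0.07, adjusted p = 0.0764).

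In Dex, Vcam1 was lower in dKO than in control by 0.41 (change -0.41 ± 0.13, adjusted p = 0.0409), and in EtOH the difference was -0.30 ± 0.13 (adjusted p = 0.0995). The 2 Vcam1 calls, for Dex in dKO and between genotypes in Dex, lay near the threshold. Each was lost when any 1 of several arrays was left out. The Dex change in dKO was not called without dKO EtOH 1 (-0.43, adjusted p = 0.0997), dKO EtOH 2 (-0.50, adjusted p = 0.0607), dKO Dex 1 (-0.37, adjusted p = 0.12), dKO Dex 2 (-0.49, adjusted p = 0.0620) or dKO Dex 3 (-0.50, adjusted p = 0.0582). The genotype difference in Dex lost its call on leaving out control EtOH 3, control Dex 1 or 3, dKO EtOH 1 or 2, or any of the 3 dKO Dex arrays, with values from -0.45 to -0.31 and adjusted p from 0.0504 to 0.149. Without the 3 arrays set apart by component 3 neither was called, with -0.48 (adjusted p = 0.166) for Dex in dKO and -0.40 (adjusted p = 0.0706) between genotypes in Dex. In control the Dex change was called without control Dex 1 (-0.45, adjusted p = 0.0347).

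The interleukin-1 receptor antagonist, the product of Il1rn, binds the interleukin-1 receptor without activating it and so blocks the cytokine. The brightest of its 3 probes gave levels of 9.26, 9.37 and 9.38 in control EtOH and 8.07, 8.80 and 7.83 in control Dex. In dKO cells it gave 10.86, 10.50 and 10.03 in EtOH and 10.41, 10.10 and 10.35 in Dex. Every dKO array lay above every control array, and within control cells every Dex array lay below every EtOH array. Within dKO cells the treatments overlapped.

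Dex lowered Il1rn 2.15-fold in control (change -1.11 ± 0.24, 95% interval -1.64 to -0.58, adjusted p = 0.00716). In dKO cells the Dex change was -0.18 ± 0.24 (95% interval -0.71 to 0.35, adjusted p = 0.658). The level in dKO was 2.19-fold that of control in EtOH (change 1.13 ± 0.24, adjusted p = 0.00564) and 4.16-fold in Dex (change 2.06 ± 0.24, 95% interval 1.52 to 2.59, adjusted p = 0.000129). The difference between the 2 Dex changes was 0.93 ± 0.34 (95% interval 0.17 to 1.68), with an adjusted p of 0.149, so a difference in response was not called. The genotype call in EtOH was lost without the 3 arrays set apart by component 3 (0.70, adjusted p = 0.0850). This increase stands beside lower macrophage markers and higher fibroblast markers in dKO cells.

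A second Il1rn probe was dimmer. Its level was 5.69, 5.68 and 6.06 in control EtOH, 4.74, 4.94 and 4.75 in control Dex, 6.02, 6.28 and 6.03 in dKO EtOH and 6.73, 6.05 and 6.38 in dKO Dex. It was above background on 3 arrays, all dKO (EtOH 2, Dex 1 and Dex 3). In Dex it was at least 1.16-fold higher in dKO than in control. The adjusted p of 9.39e-05, from the fit of all 11382 detected probes, belongs to a fitted change that uses control levels at background, and not to this bound. This probe entered that fit through dKO arrays alone, so the p-value is only a description. In EtOH the probe was not called (0.30 ± 0.17, adjusted p = 0.207). Its difference between the Dex changes was 1.27 ± 0.24 (adjusted p = 0.0337), but both control groups were at background, so that value is no measured size. The third probe lay between 4.62 and 5.18 and was above background on no array. The gene has several annotated start sites, and which transcripts each probe reads was not analysed here.

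**Figure D3:**
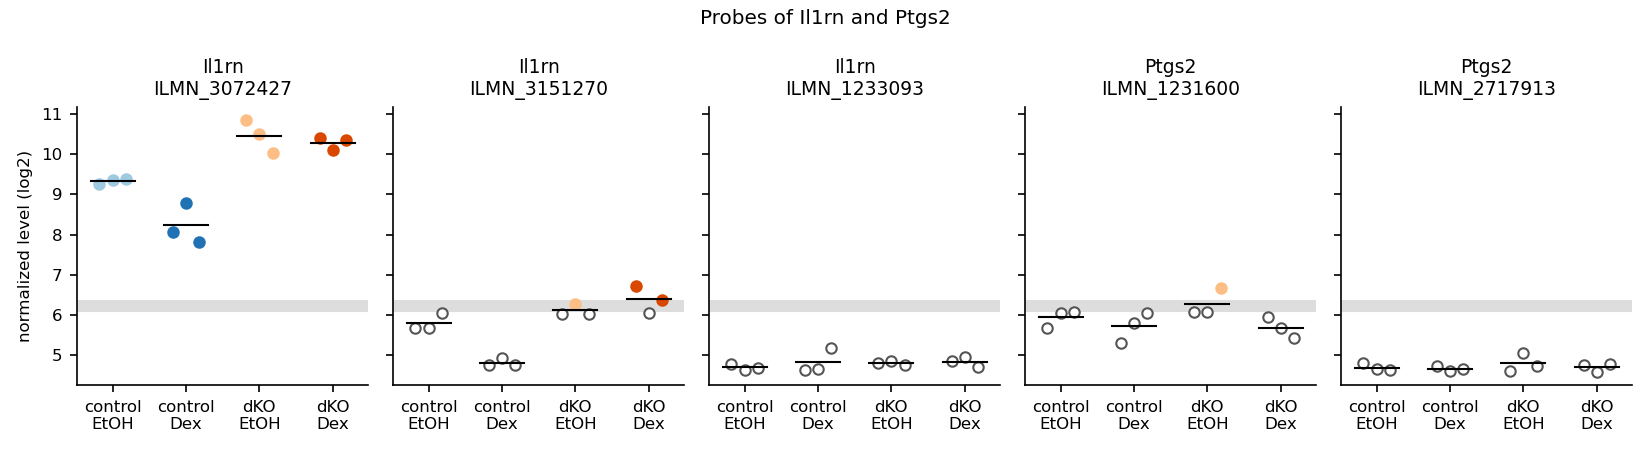
Log2 level of every probe of the 2 members with more than 1 probe, Il1rn and Ptgs2, by group, with 1 point per array and hollow points for arrays not above background. The brightest Il1rn probe is above background on all 12 arrays and separates the genotypes, whereas the dimmer Ptgs2 probe lies under the gray band on every array (4.57 to 5.04) and the brighter one is above background only on dKO EtOH 3.

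The inhibitor IkB alpha, encoded by Nfkbia, binds NF-kB dimers and is resynthesised after each round of activation. Its level was 9.91, 10.01 and 10.11 in control EtOH and 11.38, 11.06 and 10.81 in control Dex. In dKO cells it was 9.74, 9.75 and 9.59 in EtOH and 10.64, 10.63 and 10.63 in Dex. Every Dex array lay above every EtOH array of either genotype. Nfkbia rose 2.10-fold with Dex in control (change 1.07 ± 0.13, 95% interval 0.79 to 1.35, adjusted p = 0.000139) and 1.92-fold in dKO (change 0.94 ± 0.13, 95% interval 0.66 to 1.22, adjusted p = 0.000501). The 2 changes differed by -0.13 ± 0.18 (95% interval -0.53 to 0.27, adjusted p = 0.699).

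Both Dex calls of Nfkbia held in all 26 settings of the processing, the one used here included. In Dex the dKO level was lower than control (change -0.45 ± 0.13, adjusted p = 0.0302), and in EtOH the difference was -0.32 ± 0.13 (adjusted p = 0.0882). The call in Dex was lost without control Dex 1 (-0.30, adjusted p = 0.0934), control Dex 2 (-0.46, adjusted p = 0.0661), dKO Dex 1 (-0.45, adjusted p = 0.0746), dKO Dex 2 (-0.45, adjusted p = 0.0755) or dKO Dex 3 (-0.44, adjusted p = 0.0837). In EtOH the difference was called on leaving out control Dex 1 (-0.32, adjusted p = 0.0353) or control Dex 3 (-0.32, adjusted p = 0.0382).

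Tnfaip3 encodes A20, a ubiquitin-editing enzyme that shuts off signalling between the receptors and the IKK kinases. Its level was 6.95, 6.36 and 7.09 in control EtOH and 7.72, 7.51 and 7.55 in control Dex. In dKO cells it was 6.14, 5.44 and 6.66 in EtOH, only the last above background, and 6.82, 6.21 and 6.60 in Dex, of which 2 were above it. The control groups did not overlap, the dKO groups did, and the spread within a group was wide, with an SD of 0.62 in dKO EtOH. In Dex, Tnfaip3 was 2.08-fold lower in dKO than in control (change -1.06 ± 0.28, 95% interval -1.67 to -0.44, adjusted p = 0.0206), and no array overlapped. In EtOH the difference was -0.72 ± 0.28 (95% interval -1.34 to -0.11, adjusted p = 0.0766).

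With Dex the Tnfaip3 change was 0.80 ± 0.28 in control (95% interval 0.18 to 1.41, adjusted p = 0.0681) and 0.46 ± 0.28 in dKO (95% interval -0.15 to 1.08, adjusted p = 0.295), neither called. The change in control was called without dKO EtOH 2 (0.80, adjusted p = 0.0251), without dKO EtOH 3 (0.80, adjusted p = 0.0271) and without the 3 arrays set apart by component 3 (0.83, adjusted p = 0.0291). The genotype difference in Dex lost its call without control Dex 1 (-0.99, adjusted p = 0.0656), dKO Dex 2 (-0.89, adjusted p = 0.0824) or dKO Dex 3 (-1.09, adjusted p = 0.0552). In EtOH it was called without control EtOH 2 (-0.94, adjusted p = 0.0492) or dKO EtOH 3 (-1.02, adjusted p = 0.0108).

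Among the subunits, Nfkb2 encodes the precursor of the subunit that pairs with RelB in the non-canonical branch of the pathway. Its level was 8.22, 8.33 and 8.29 in control EtOH, 7.77, 8.14 and 8.16 in control Dex, 7.35, 7.94 and 7.76 in dKO EtOH and 7.74, 7.50 and 7.65 in dKO Dex. Every dKO EtOH array lay below every control EtOH array, and the same held in Dex. Nfkb2 was 1.51-fold lower in dKO in EtOH (change -0.60 ± 0.15, 95% interval -0.93 to -0.26, adjusted p = 0.0154), and in Dex the difference was -0.40 ± 0.15 (adjusted p = 0.0968). The Dex changes were -0.25 ± 0.15 in control (adjusted p = 0.290) and -0.05 ± 0.15 in dKO (adjusted p = 0.843). The EtOH call was lost without control EtOH 2 (-0.57, adjusted p = 0.0524), dKO EtOH 1 (-0.43, adjusted p = 0.0559) or the 3 arrays set apart by component 3 (-0.53, adjusted p = 0.0560). The Dex difference was called without control Dex 1 (-0.52, adjusted p = 0.0469) or dKO EtOH 1 (-0.40, adjusted p = 0.0466).

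Relb encodes the RelB subunit itself. Its level was 7.29, 7.46 and 7.50 in control EtOH, 7.19, 6.71 and 6.86 in control Dex, 6.77, 6.61 and 7.16 in dKO EtOH and 6.45, 6.65 and 5.997 in dKO Dex, the last not above background. Control EtOH held the 3 highest values and dKO Dex held the 2 lowest. Relb was 1.49-fold lower in dKO in EtOH (change -0.57 ± 0.19, 95% interval -0.99 to -0.16, adjusted p = 0.0444), and in Dex the difference was -0.56 ± 0.19 (adjusted p = 0.0608). The Dex changes were -0.50 ± 0.19 in control (adjusted p = 0.0902) and -0.48 ± 0.19 in dKO (adjusted p = 0.115). The EtOH call was lost without any 1 control EtOH array, dKO EtOH 1 or 2, or dKO Dex 1, with values from -0.63 to -0.46 and adjusted p from 0.0592 to 0.158, and without the 3 arrays set apart by component 3 it was -0.26 with an adjusted p of 0.539. The Dex difference was called without dKO EtOH 3 (-0.56, adjusted p = 0.0374) or dKO Dex 2 (-0.70, adjusted p = 0.0383).

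**Figure D4:**
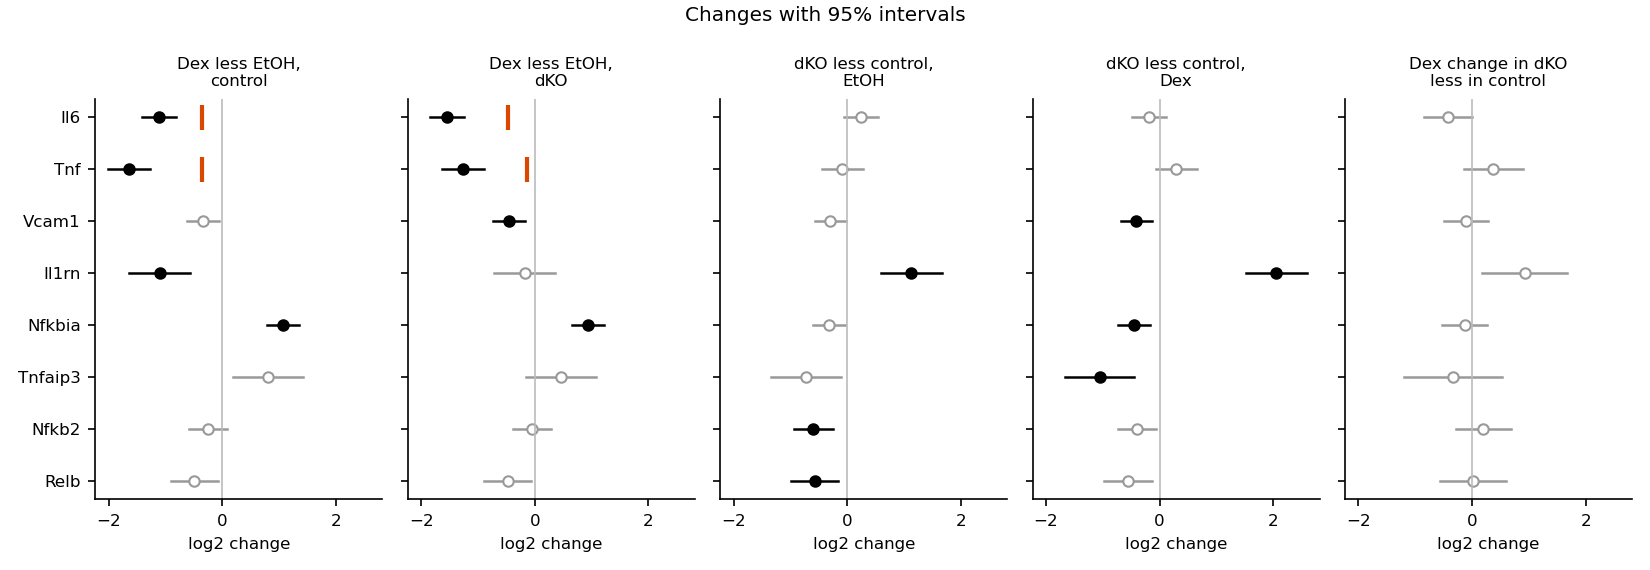
Log2 change of the 8 tested members in each of the 4 comparisons of 2 groups, with the 95% interval of the linear model. The last panel shows the Dex change in dKO less the Dex change in control. Filled points are called at an adjusted p under 0.05, and an orange tick marks the bound for a gene at background in 1 group. Nfkbia is right of 0 in both Dex panels at 1.07 and 0.94, and Il1rn is right of 0 in both genotype panels at 1.13 and 2.06.

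The question whether cryptochromes alter the response to Dex is addressed by the interaction, that is, by subtracting the Dex change of control cells from that of dKO cells. None of the 8 members was called (0 of 8 with limma), where 2.29% of all genes were called. At an unadjusted p under 0.05 there were 2 of 8, and the share of all genes at that threshold was not computed. The 2 were Il1rn, given above, and Il6. For Il6 (-0.43 ± 0.19, adjusted p = 0.216) and Tnf (0.38 ± 0.23, adjusted p = 0.351) both Dex groups were at background, so these values are no measured sizes. Of the rest, Tnfaip3 had -0.34 ± 0.40, Nfkb2 0.20 ± 0.22, Vcam1 -0.11 ± 0.18 and Relb 0.02 ± 0.27. The interval for Tnfaip3, from -1.21 to 0.53, leaves room for a difference in either direction, and a missed threshold does not show that the genotypes responded alike.

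The order of the members' spread over the 4 group means differed from gene to gene. Nfkbia was ordered by treatment first, with both Dex groups over both EtOH groups, and Il1rn by genotype first. Vcam1, Relb and Nfkb2 had control EtOH at the top and dKO Dex at the bottom. For Nfkb2 the 2 dKO groups (7.69 ± 0.30 SD in EtOH and 7.63 ± 0.12 in Dex) did not differ beyond their spread. For Vcam1 control Dex (11.12 ± 0.21) and dKO EtOH (11.17 ± 0.07) did not, nor for Relb (6.92 ± 0.24 and 6.85 ± 0.28). For Tnfaip3 control EtOH (6.80 ± 0.38) and dKO Dex (6.54 ± 0.31) overlapped, between control Dex at the top (7.60 ± 0.11) and dKO EtOH at the bottom (6.08 ± 0.62).

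The genes whose centred levels followed each member most closely over the 12 arrays were ranked by the root mean square (RMS) difference in log2, as a description. For Il6 they were AW551984 (0.241), Serpinb1a (0.241) and the chemokine gene Ccl2 (0.249), against an SD of 0.688 for Il6 itself. Tnf was followed by Serpinb1a (0.196), Fcgr2b (0.245) and Il6 (0.276). Il6 and Tnf were above background on no Dex array. Their RMS values thus rest in part on levels at background and do not show that the 2 cytokines ran together. Nfkbia was followed by Traf3ip2 (0.137), Nbl1 (0.155) and Irak3 (0.167), the last an inhibitory member of the kinase family that relays interleukin-1 and Toll-like receptor signals. Il1rn was followed less closely, by Igfbp4 (0.308), Clec11a (0.316) and Nr1d2 (0.328). For Tnfaip3 the nearest were Ltbp1 (0.298), Napepld (0.299) and Phlpp1 (0.307). Mis18a (0.153), Cracr2b (0.156) and Foxm1 (0.157) came nearest to Nfkb2. Fam102a (0.163), Acox3 (0.170) and Pdzrn3 (0.186) came nearest to Relb, and Emilin1 (0.115), BC052040 (0.117) and Rnf135 (0.123) to Vcam1. The arrays share their groups and normalization, so these values carry no test.

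The shares of all genes to set beside the counts of the lists below are those given above, 8.85% higher and 11.4% lower for Dex in control, 8.62% and 5.99% for Dex in dKO, 10.7% and 15.8% between genotypes in EtOH and 9.92% and 9.82% in Dex. Other inflammatory targets of NF-kB, with chemokines left out, went both ways with Dex. Of 20 tested genes, 5 rose and 8 fell in control (median -0.28, against -0.04 over all genes), and 5 rose and 6 fell in dKO (median -0.26, or -0.16 with genes at background set at their bounds, against 0.03). Ch25h, whose enzyme makes an oxysterol, fell by 2.81 ± 0.16 in control (change -2.81, adjusted p = 3.50e-07) and by 2.54 ± 0.16 in dKO (change -2.54, adjusted p = 1.03e-06). Cd83, a surface protein of activated antigen-presenting cells, was at least 3.64-fold lower in control and at least 1.05-fold lower in dKO. The acute-phase genes moved the other way. Saa3 rose by 3.02 ± 0.25 in control and 2.18 ± 0.25 in dKO, and Lcn2 was at least 37.5-fold and 12.5-fold higher.

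Between genotypes, 3 of these 20 targets were higher and 5 lower in EtOH (median -0.27, against -0.05 over all genes), and 2 were higher and 6 lower in Dex (median -0.08, against 0.01). Mmp3, a matrix-degrading protease of fibroblasts, was higher in dKO by 1.79 ± 0.13 in EtOH and 2.46 ± 0.13 in Dex. Cd83 was lower by 1.66 in EtOH (change -1.66 ± 0.15, adjusted p = 1.47e-05), and Saa3 was lower in Dex (change -1.56 ± 0.25, adjusted p = 0.00113), with a difference of -0.71 ± 0.25 in EtOH (adjusted p = 0.0569). Macrophage markers were lower in the same cells, in the numbers given above.

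The other inhibitors and feedback regulators did not move as a block. Of 23 tested, 4 rose and 5 fell with Dex in control (median 0.03), and 3 rose and 1 fell in dKO (median 0.06). Irak3 rose by 0.75 ± 0.11 in each genotype, with adjusted p of 0.000484 and 0.000669. Zc3h12a, whose product degrades cytokine mRNAs, rose by 0.45 ± 0.13 in control (adjusted p = 0.0348) and 0.53 ± 0.13 in dKO (adjusted p = 0.0219). Usp18, a gene known to be induced by interferon, fell in control (change -1.78 ± 0.23, adjusted p = 0.000228), and in dKO its change was -0.69 ± 0.23 (adjusted p = 0.0667). Both further Usp18 probes were called lower with Dex in dKO. The brighter changed by -1.02 (adjusted p = 0.0418). The dimmer was at background in dKO Dex and was at least 1.17-fold lower, so its fitted -1.64 (adjusted p = 0.0161) is no measured size. In control the dimmer probe was not called (-1.09, adjusted p = 0.0705). Usp18 was also lower in dKO than in control, by 2.67 ± 0.23 in EtOH (change -2.67, adjusted p = 1.27e-05) and 1.58 ± 0.23 in Dex (change -1.58, adjusted p = 0.000571), though 1 further probe was not called in EtOH (-0.87, adjusted p = 0.109). Of the 23, 1 was higher and 5 were lower in dKO in EtOH (median -0.15), and 2 were higher and 2 lower in Dex (median -0.02).

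Among 20 other subunits, kinases and adaptors, 0 rose and 2 fell with Dex in control (median 0.00), Ticam2 at least 1.5-fold and Irak2 by 0.42 (change -0.42 ± 0.12, adjusted p = 0.0236). In dKO 0 of 20 were called with limma (median -0.05). An unadjusted p under 0.05 was found for 4, a count without a share over all genes to set beside it. In the genotype comparison in EtOH 0 were higher and 4 lower (median -0.18): Ticam2, Rela (-0.38 ± 0.09, adjusted p = 0.0119), the Toll-like receptor adaptor gene Myd88 (-0.40 ± 0.12, adjusted p = 0.0294) and the kinase gene Map3k7 (-0.40 ± 0.13, adjusted p = 0.0466). In Dex 1 was higher and 3 were lower (median -0.22), with Irak2 higher by 0.48 ± 0.12 and Traf6 (-0.70 ± 0.12), the IKK kinase gene Ikbkb (-0.52 ± 0.13) and Rela (-0.30 ± 0.09) lower. The probes of Irak2 disagreed: the second gave -0.10 (adjusted p = 0.652) for Dex in control, -0.47 (adjusted p = 0.0308) for Dex in dKO, and genotype differences of 0.52 (adjusted p = 0.0128) in EtOH and 0.14 (adjusted p = 0.493) in Dex. Neither further Traf6 probe was called in Dex (-0.47, adjusted p = 0.432, and -0.51, adjusted p = 0.146). Rela encodes the main activating subunit and was lower in dKO under both treatments. These 4 of 20 calls in each treatment (20%) are near or below the 26.5% and 19.7% over all genes.

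Of 12 tested receptors for TNF, interleukin-1, interleukin-6 family cytokines and microbial products, 1 rose and 1 fell with Dex in control (median 0.19), and 2 rose and 2 fell in dKO (median -0.03). Tlr7 rose by 1.10 ± 0.13 and 1.18 ± 0.13, while Tlr2 fell in both (change -1.07 ± 0.17 and -0.64 ± 0.17). In dKO 0 receptors were higher and 4 lower under each treatment (33.3% of 12, medians -0.32 and -0.32), where 15.8% and 9.82% of all genes were lower. They included the TNF receptor gene Tnfrsf1a (-0.45 ± 0.14 in EtOH, -0.63 ± 0.14 in Dex) and Tlr7 (-0.85 ± 0.13 and -0.77 ± 0.13). Of the 2 further Tnfrsf1a probes, neither was called in EtOH (-0.18 and -0.20) and 1 was in Dex (-0.45, adjusted p = 0.0244). Tlr7 and Tlr2 are also known from macrophages, whose markers were lower in dKO.

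Of 8 tested regulators of cytokine mRNA, 2 rose and 0 fell with Dex in each genotype (medians 0.08 and 0.05). They were Zfp36, whose protein tristetraprolin speeds the decay of Tnf mRNA, with 0.99 ± 0.11 in control and 0.88 ± 0.11 in dKO, and Dusp1, a phosphatase of stress kinases, with 1.00 ± 0.11 and 0.70 ± 0.11. In EtOH 0 of 8 differed between genotypes with limma (median -0.05). An unadjusted p under 0.05 was found for 3, again without a share over all genes to set beside it. In Dex 1 was lower in dKO, Zfp36l1 (median -0.14), whose second probe was not called (-0.20, adjusted p = 0.296).

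Around the untested Ptgs2, 12 other genes of prostaglandin synthesis, breakdown and reception were tested. Dex raised 1 and lowered 4 in control (median -0.14), and raised 3 and lowered 1 in dKO (median 0.15). Anxa1, whose product is known to restrain the release of the precursor lipid, rose by 1.25 ± 0.12 and 0.85 ± 0.12, and the prostaglandin-degrading Hpgd fell in control (change -1.11 ± 0.16), with a change of -0.41 ± 0.16 in dKO (adjusted p = 0.114). Between genotypes 2 were higher and 2 lower in EtOH (median -0.17), and 2 were higher and 1 lower in Dex (median 0.22). The thromboxane synthase gene Tbxas1 was lower in dKO, by 2.07 ± 0.11 in EtOH (change -2.07) and 1.47 ± 0.11 in Dex (change -1.47), and the prostacyclin synthase gene Ptgis was higher in Dex by 1.01 ± 0.24, with a difference of -0.13 ± 0.24 in EtOH (adjusted p = 0.712). A further Tbxas1 probe was also called lower but changed less, by -0.94 ± 0.13 in EtOH and -0.90 ± 0.13 in Dex.

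Beside Vcam1, 10 adhesion genes were tested. With Dex 1 rose and 1 fell in control (median 0.02), and 3 rose and 0 fell in dKO (median 0.13). In the genotype comparison 1 was higher and 3 lower in EtOH (median 0.07), and 2 were higher and 1 lower in Dex (median -0.05). The junctional adhesion molecules split: Jam2 was higher in dKO by 0.99 ± 0.16 in EtOH and 1.12 ± 0.16 in Dex, while F11r was lower (change -1.39 ± 0.18 and -0.83 ± 0.18). All 3 further Jam2 probes were called higher in EtOH, some of them with control EtOH at background, and 1 of the 3 was in Dex. That probe was at background in control Dex and was at least 1.01-fold higher in dKO, so its fitted 0.60 (adjusted p = 0.0486) is no measured size.

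**Figure D5:**
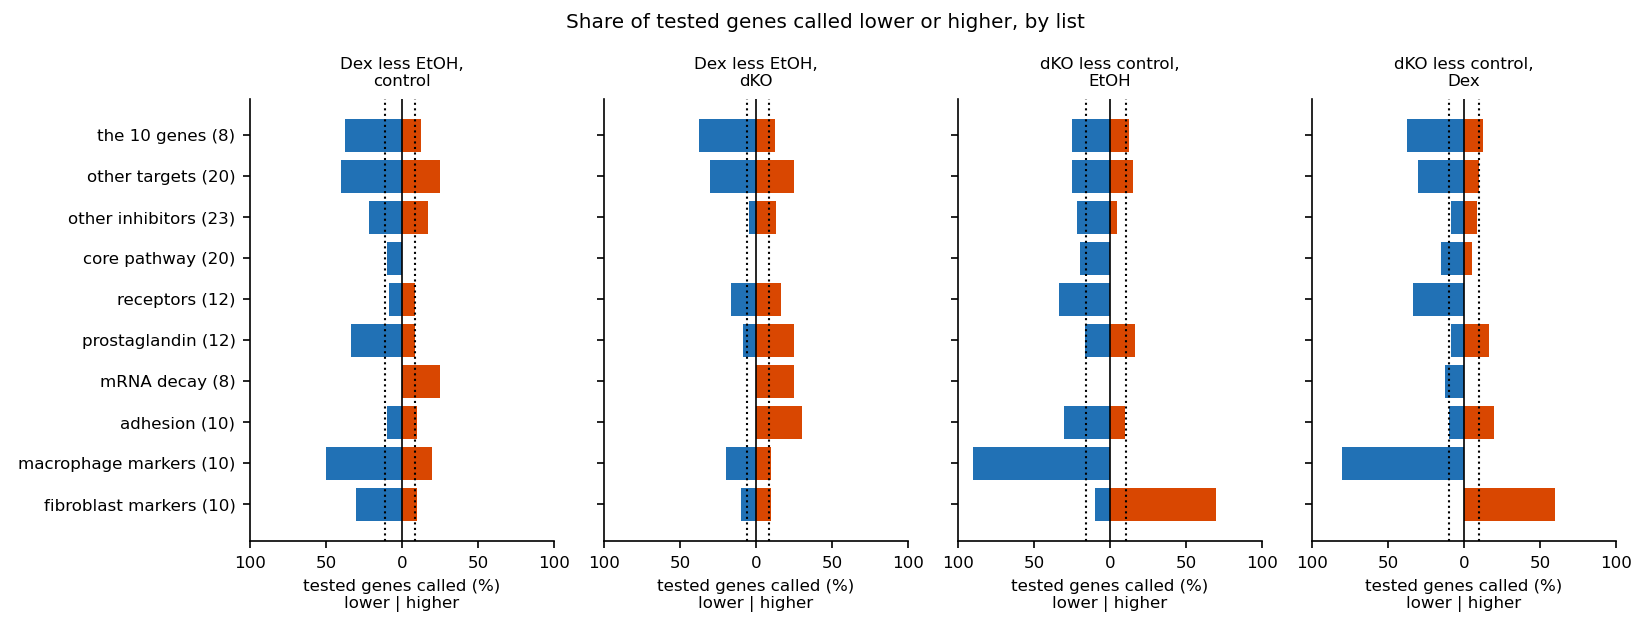
Percent of the tested genes called lower (left of 0) and higher (right of 0) in each list, in the 4 comparisons of 2 groups, with dotted lines at the percent of all 8420 genes called in each direction. In the control Dex panel 8 of the 20 inflammatory targets are lower and 5 higher, against 11.4% and 8.85% of all genes.

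In the interaction 3 of the 20 inflammatory targets were called, 1 higher and 2 lower, of which Cd83 and Lcn2 had groups at background, and none in the lists of inhibitors (0 of 23), core pathway (0 of 20), receptors (0 of 12), prostaglandin genes (0 of 12), mRNA regulators (0 of 8) and adhesion genes (0 of 10) with limma. At an unadjusted p under 0.05 those lists held 4, 7, 3, 6, 0 and 4 genes, and the share of all genes at that threshold was not computed.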

How the data were processed

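Total RNA of the 12 samples was amplified to biotinylated cRNA and read on Illumina bead arrays, and GenomeStudio is named, with no version, in the submitters' processing notes. The intensities used here are bead signals per probe that, per the file headers, were deposited before normalization. The detection p-values deposited beside them, so named in the file headers, were taken to compare a probe with the negative controls of its array. A second deposited table of intensities, whose making no source used here describes, served as an alternative.

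Background was corrected with nec from limma 3.58.1 in R 4.3.3 (offset 16, background inferred from the detection p-values), and signals were quantile normalized and brought to log2. The platform annotation gave symbols to 23978 probes and left 1719 unnamed. Of those named, 23962 had an Entrez identifier in the RefSeq gene list and took its symbol, whether or not that changed the name. Probes with a detection p under 0.01 on at least 3 arrays were kept, and each gene was read from its brightest kept probe. A linear model with 4 group means was fitted with limma over all 12 arrays, with empirical Bayes moderation (11.5 degrees of freedom) and Benjamini-Hochberg adjustment over 8420 genes, in 5 comparisons. The script was tested on simulated data.

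A group with none of its 3 arrays above background has only an upper bound. Its fold is then given as at least N, from the brighter group's mean and, per array of the dim group, the higher of the lowest level above background and the probe's own. Fits other than the one used here are given in the closing section. The number of arrays limits the precision. Same-numbered replicates correlated in their residuals at r between -0.18 and -0.05 across treatments within a genotype. Across genotypes r lay between -0.05 and 0.14. There the same-numbered array was the closest for every EtOH replicate and for Dex replicates 2 and 3. The numbers were not taken to pair the arrays, and whether they mark a batch was not tested. The members, the gene lists, the motifs and the tests were chosen with earlier results of these data known. From each list up to 4 called genes with the smallest p per comparison were named, beside every member and the 3 genes most like each called member.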

Additional observations from a re-analysis of the deposited data

Results flagged for a closer look

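The interaction of the linear model, fitted with limma over 3 arrays per group, was called for 4 genes and 1 further probe of the lists. For 3 of these 5 some groups were at background, so their values are no measured sizes and a difference in the Dex change is not shown. They were Lcn2, an acute-phase gene, at -1.67 ± 0.20 SE (adjusted p = 0.00175), with both EtOH groups at background and Dex levels of 11.43 in control and 9.80 in dKO. Cd83 had 1.58 ± 0.21 (adjusted p = 0.00341), with both Dex groups at background and EtOH levels of 8.04 in control and 6.39 in dKO. The second Il1rn probe, in the fit of all detected probes, had 1.27 ± 0.24 (adjusted p = 0.0337), with both control groups at background, while the brightest Il1rn probe was not called. The other two were measured in all groups. Bcl2l1, a survival gene, had -0.92 ± 0.19 at its brightest probe (adjusted p = 0.0343), with mean levels of 8.23 and 9.68 in control EtOH and Dex and 8.69 and 9.21 in dKO, and its 2 further probes were not called (-0.17, adjusted p = 0.744, and -0.74, adjusted p = 0.160). The macrophage marker Aif1 had 0.79 ± 0.18 at its brightest probe (adjusted p = 0.0488), with means of 8.42 and 7.10 in control EtOH and Dex and 7.56 and 7.04 in dKO, and its further detected probe had the opposite sign (-0.36, adjusted p = 0.623). Single arrays were not tested as outliers, because groups of 3 are too small for it.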

How the results depend on the processing

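The 40 changes of the 8 tested members were recomputed under 25 other settings, and the calls of Nfkbia for Dex in both genotypes, of Il1rn for Dex in control and of Il1rn between genotypes in Dex held in all of them that gave a value. The number of members called in the genotype comparison in EtOH (3 of 8) became 6 with median scaling in place of quantile normalization, 6 with array weights and 0 without the 3 arrays that component 3 set apart. In the genotype comparison in Dex (4 of 8) it became 2 with no filter, 2 with only the compared groups in the fit and 2 with the replicate number as a block. With the replicate block 5 members were called for Dex in control, 3 for Dex in dKO, 3 between genotypes in EtOH and 0 in the interaction: Tnfaip3 gained its call for Dex in control and between genotypes in EtOH, and Vcam1 in both its comparisons, Relb in EtOH and Nfkbia in Dex lost theirs. With array weights 7 members were called for Dex in control (4 of 8), and with median scaling 1 was called in the interaction (0 of 8), Il1rn at 1.19 with an adjusted p of 0.0497. Calls over all genes moved with the settings too, so these counts are only a description. Between genotypes in EtOH they were 2234 here, 3107 with median scaling and 4146 with array weights. For Dex in control they were 1706 here and 2824 with array weights. In the interaction they were 193 here and 697 with median scaling. With no filter, only the compared groups or the replicate block, such counts for comparisons of 2 groups are given below only as ranges. Leaving out each array in turn gave 4 to 5 members for Dex in control, 3 to 4 for Dex in dKO, 1 to 4 between genotypes in EtOH, 1 to 5 in Dex and 0 to 0 in the interaction. Over all genes it gave 1202 to 1985, 717 to 2205, 1442 to 3126, 1146 to 1939 and 30 to 1202 calls in the same order. Some uncalled changes turned sign. With median scaling the interactions of Nfkbia and Vcam1 were 0.12 and 0.17. With array weights the genotype difference of Tnf in EtOH was 0.022 and the interactions of Tnfaip3 and Vcam1 were 0.087 and 0.039. Leaving out 1 array gave ranges of -0.13 to 0.20 for the interaction of Relb, -0.26 to 0.017 for that of Nfkbia, -0.40 to 0.019 for the Dex change of Il1rn in dKO, -0.22 to 0.074 for that of Nfkb2 in dKO and -0.16 to 0.050 for the genotype difference of Tnf in EtOH. Without the 3 arrays the Dex changes in dKO were -0.13 for Tnfaip3 and 0.26 for Il1rn, and the interaction of Relb was -0.33. The cause of these moves was not tested.

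Over all genes, the interaction was called for 193 and for 30 to 1777 under the alternatives (37 with the replicate block, 32 with the block within genotype). The 4 other comparisons were called for 1706, 1230, 2234 and 1662 genes and ranged from 1202 to 2824, 684 to 3159, 1414 to 4146 and 1146 to 2905, each highest with array weights. With median scaling 482 of 1794 calls were higher for Dex in control (745 of 1706 here), 871 of 1214 for Dex in dKO (726 of 1230) and 518 of 3107 between genotypes in EtOH (903 of 2234). Median scaling also moved the median change of all genes from -0.04 to -0.15 for Dex in control, from 0.03 to 0.14 for Dex in dKO, from -0.05 to -0.25 between genotypes in EtOH and from 0.08 to 0.30 in the interaction, and no member turned sign in a comparison of 2 groups. Signal over background limits Il6, Tnf, Ptgs2, Tnfaip3 and Relb, which lay near the lowest levels above background.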

Other observations

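Fitted with limma without the filter on background, the brighter Ptgs2 probe changed with Dex by -0.22 in control (adjusted p = 0.672) and -0.60 in dKO (adjusted p = 0.162). Its levels were at background on every array but dKO EtOH 3, so these values carry no fold.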
